A study of Mus musculus with 9 samples.

Results

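The transcripts of 10 receptors by which blood progenitors hold to and home to the bone marrow were measured in myeloid progenitors (MPs). They were the integrin subunits Itga4, Itga5, Itga6, Itgal, Itgam, Itgb1 and Itgb2, the hyaluronan receptor Cd44, the P-selectin ligand Selplg and the chemokine receptor Cxcr4. They were taken by gene symbol from the 37980 genes of the count table, of which 11953 had enough counts to be tested, and all 10 were among the tested genes. NA MPs carried the fusion gene Nup98-Hoxa10hd (NA), which joins part of a nucleoporin to the DNA-binding homeodomain of Hoxa10. The fusion was expressed from a knock-in allele opened by Vav-Cre, which is active in blood cells (NA LSL/+; Vav-Cre, C57BL/6). Multipotent progenitors (MPPs) of such mice, or WT MPPs, were given with bone marrow helper cells to irradiated adult mice, and 3 months later, by the labels, Lin-c-kit+Sca1- MPs were sorted from the bone marrow of the recipients. Each of the 9 samples held 100000 cells. The 4 NA MP samples were Tdtomato+ and so derived from the donor, and the 5 WT MP samples were CD45.2+, a marker that the recipients also carried. Elsewhere the study follows donor cells by Tdtomato or CD45.1, the latter for WT MPPs, so the CD45.2+ cells may not include WT donor cells. Donor, helper and recipient origin of the WT MPs cannot be told apart here.

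An integrin is a pair of an alpha and a beta subunit that binds matrix or cell-surface ligands, more strongly once it is switched on from inside the cell. Itga4, Itga5 and Itga6 pair mainly with Itgb1 and bind Vcam1, fibronectin and laminin of the marrow, whereas Itgal and Itgam pair with Itgb2, the leukocyte beta subunit that binds the Icam proteins. Selplg and Cd44 are glycoproteins that carry selectin ligands or bind hyaluronan, and Cxcr4 is the receptor for Cxcl12, the chemokine that retains progenitors in the marrow.

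Libraries held from 5557718 to 8106140 counts once a scaling in the deposited values was undone. In NA MPs, Nup98 was at 966.7 ± 83.3 normalized read counts (SD, n = 4) against 603.2 ± 30.1 in WT MPs (SD, n = 5), and Hoxa10 was at 130.2 ± 17.9 against 8.104 ± 2.59. Both genes of the fusion were thus higher in the samples labelled NA. Counts per gene cannot tell transcripts of the fusion from those of the endogenous genes. Kit, the gene of the sorted antigen, was at 2840 to 3168 in NA MPs and 3004 to 3122 in WT MPs. The 8 myeloid progenitor markers, among them Mpo and Cd34, summed to 24400 to 26800 in NA MPs and 24100 to 24900 in WT MPs on the scale of CPM (counts scaled to a common library total). Of these 8 genes, all tested, 6 were higher and 1 lower in NA MPs, so the overlap does not mean that the markers were level. Ly6a, the gene of the excluded Sca1 antigen, was at most 23.41 in any sample. The summed level of 12 B lineage marker genes was 167 to 315 CPM in NA MPs and 44.1 to 47.1 in WT MPs, and that of 16 erythroid genes was 963 to 1220 against 1850 to 2040. Of the tested genes of these lists, 11 of 11 B lineage genes were higher and 13 of 15 erythroid genes were lower in NA MPs. Mast cell and basophil genes summed to 570 to 660 CPM against 407 to 445. Immediate early genes, which respond to handling and signals within minutes, summed to 2120 to 4600 CPM against 489 to 1000. T and NK cell genes summed to 10.3 to 15.1 CPM against 4.23 to 6.48, without overlap, with Cd3e, Cd3g and Trac at 0 in every library. Of the 10 genes of that list 2 were tested, and 1 was higher in NA MPs. The part of these shifts in the results below was not tested, and in sorted bulk samples a larger share of cells with a transcript and more transcript per cell cannot be told apart. NA MP replicate 1 stood apart from the other NA MPs on the second principal component (19.3 against -9.11 to -2.86 in the others), which held 6.18% of the variance.

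Of the 10 receptors, 6 rose and 2 fell in NA MPs, none of them by 2-fold. Genes that were both called and changed over 2-fold made up 4.12% of all tested genes and 0.582% of the genes at like levels described below. Itgal, Itgam, Selplg, Itga4, Itga6 and Itgb2 rose, from 1.33-fold for Itgal to 1.09-fold for Itgb2. Cd44 fell to 0.859 and Itgb1 to 0.926 of the WT level, and Itga5 and Cxcr4 did not pass the test. Calls rest on the quasi-likelihood test of edgeR with a Benjamini-Hochberg adjusted p under 0.05 over all tested genes. By that test 34.1% of all tested genes were called, 17.9% higher and 16.3% lower. Among the 3266 genes whose average log2 CPM lay within the range of the 10 receptors (6.11 to 8.52), 42.5% were called, 18.4% higher and 24% lower, against 8 of 10 receptors. After a correction for the GC content and length of the genes, 38.2% of the called genes were higher, against 52.3% without it, and 5 receptors were higher and 3 lower. For 6 of the 10 receptors no NA MP sample overlapped any WT MP sample, against 26.4% of all tested genes and 33.4% of the genes in that range. The median absolute log2 fold change was 0.18 for the receptors, 0.12 over all tested genes and 0.09 over the genes in that range. The labels do not say whether each sample came from a separate mouse, so p-values measure only the spread between these samples.

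**Figure D1:**
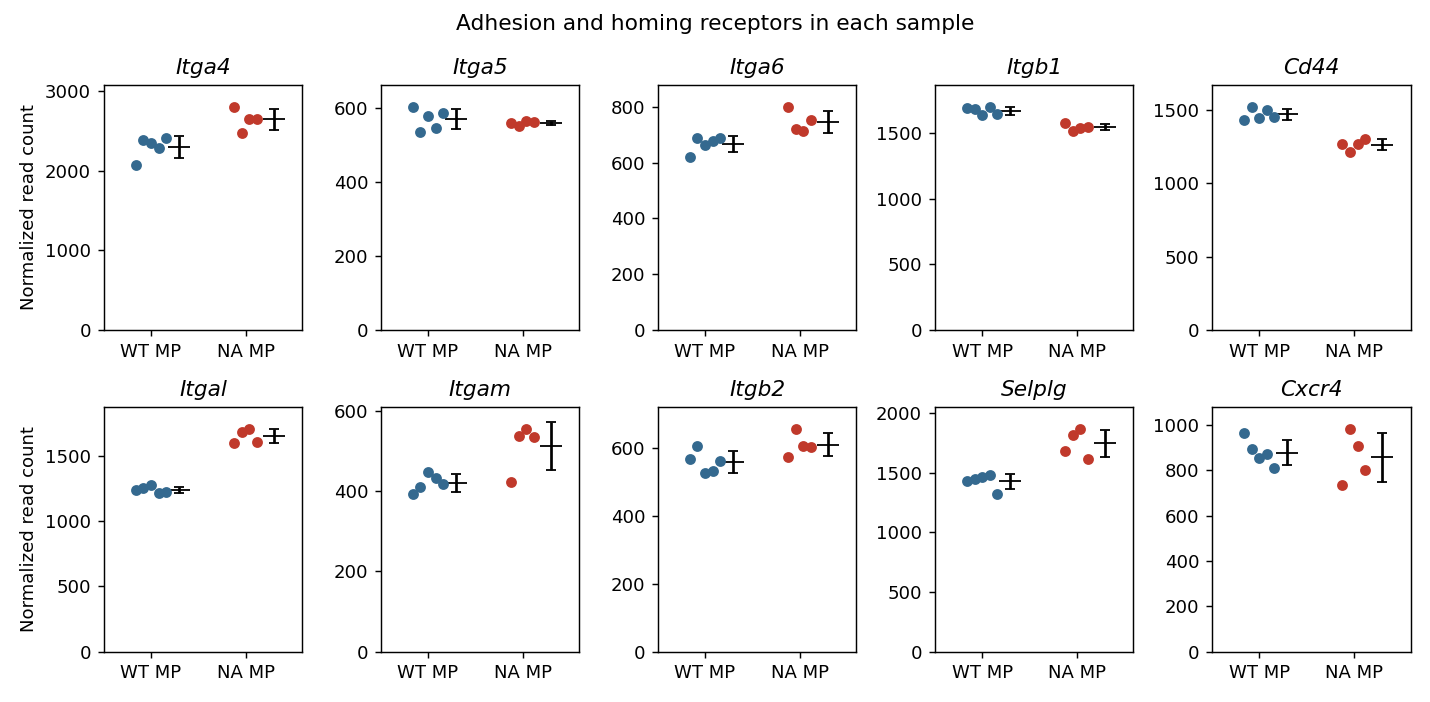
Normalized read count (y axis, from 0) of each receptor in 5 WT MP samples (blue) and 4 NA MP samples (red), with the mean and SD as a black bar beside the points. Itgal lies at 1217 to 1271 in WT MPs and 1599 to 1703 in NA MPs, whereas the points of Cxcr4 overlap widely.

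Stretches of 250 bases before the transcription start are given for receptors of both directions, Itga4 and Itgam, which rose, and Cd44 and Itgb1, which fell. They were read from RefSeq windows of the GRCm38.p6 build, which held 6 of the 10 receptors, and are printed 5′ to 3′ on the strand of the gene. Capitals mark matches on either strand to 4 motifs. The motif of Sp1, a factor of many promoters, was searched as GGGCGG. That of PU.1, a master factor of myeloid cells, was searched as GAGGAAG. That of the Runx factors was searched as TGTGGT, and that of the GATA factors, which act in erythroid and mast cells, as AGATAA.
Itga4 (chr2:79255176-79255425, plus strand): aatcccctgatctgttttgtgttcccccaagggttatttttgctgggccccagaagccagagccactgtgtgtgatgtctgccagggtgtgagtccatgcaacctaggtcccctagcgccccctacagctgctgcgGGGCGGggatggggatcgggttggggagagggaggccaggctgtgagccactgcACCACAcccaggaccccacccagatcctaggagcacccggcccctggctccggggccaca
Itgam (chr7:128062390-128062639, plus strand): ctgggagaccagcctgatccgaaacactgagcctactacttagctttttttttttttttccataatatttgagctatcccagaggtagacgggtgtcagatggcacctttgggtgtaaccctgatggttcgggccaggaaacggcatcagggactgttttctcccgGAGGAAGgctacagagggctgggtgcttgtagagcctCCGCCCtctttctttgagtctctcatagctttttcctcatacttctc
Cd44 (chr2:102901666-102901915, minus strand): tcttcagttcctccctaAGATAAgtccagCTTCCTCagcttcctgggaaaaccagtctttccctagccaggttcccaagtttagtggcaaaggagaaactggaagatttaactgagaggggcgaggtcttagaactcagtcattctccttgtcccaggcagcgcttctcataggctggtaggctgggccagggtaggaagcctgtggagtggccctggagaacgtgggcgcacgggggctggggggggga
Itgb1 (chr8:128685404-128685653, plus strand): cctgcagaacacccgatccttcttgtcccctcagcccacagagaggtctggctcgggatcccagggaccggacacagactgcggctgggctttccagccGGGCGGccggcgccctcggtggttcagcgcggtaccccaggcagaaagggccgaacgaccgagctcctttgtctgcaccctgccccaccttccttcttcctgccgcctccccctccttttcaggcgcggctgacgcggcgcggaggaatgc
Itga4 held an Sp1 match 114 bases and a Runx match 60 bases before its start. Itgam held a PU.1 match at 84 bases and an Sp1 match at 47 bases. Cd44 held a GATA match at 233 bases and a PU.1 match at 221 bases, and Itgb1 an Sp1 match at 151 bases. Over all 32851 windows, 32.7% held the Sp1 letters, 10.6% the PU.1 letters, 14% the Runx letters and 9.99% the GATA letters. None of the 6 receptor windows held TGATTNAT (Hox-Pbx, 2.82% of all windows), TGANTCA (AP-1, 6.75%) or TGACGTCA (the cyclic AMP response element, 1.55%). A match of letters is a description of the window and no evidence of binding. The Itgb1 window had the highest GC content of the printed windows, at 68.0% with 21 CpG sites, against a median of 52.4% and 6 CpG sites over all windows.

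The alpha subunits that pair with Itgb1 did not move as one. Itga4 (chr2:79255426-79333123, plus strand) encodes the alpha subunit of VLA-4, which binds Vcam1 and fibronectin. Its normalized read counts were 2797, 2475, 2654 and 2649 in NA MP replicates 1 to 4 and 2070, 2388, 2344, 2283 and 2413 in WT MP replicates 1 to 5. WT replicate 1 was the lowest sample, and every NA sample lay above every WT sample, though the gap between the groups was narrow. The log2 fold change was 0.20 ± 0.04 (SE), with an adjusted p of 0.000316 by edgeR and an exact two-sided permutation p of 0.0159, the smallest that all splits of 9 samples into 4 and 5 can give. An exon of Itga4 overlaps one of Cerkl on the opposite strand, and Cerkl was also higher (457.1 ± 32.13 against 360.8 ± 24.24). Whether counting used strand is not given in the sources used here, so the gene of origin of reads in the overlapping stretch cannot be told.

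Itga6 (chr2:71745616-71858416, plus strand) encodes a laminin receptor subunit. The counts were 798.9, 722.2, 712.1 and 753.2 in NA MPs and 619.4, 688.3, 664.8, 675.9 and 688.1 in WT MPs. The highest WT sample stood just under the lowest NA sample, with no overlap. Itga6 rose by a log2 fold change of 0.16 ± 0.04 (SE; edgeR adjusted p = 0.00313).

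Itga5 (chr15:103344286-103366763, minus strand) encodes the alpha subunit of the classical fibronectin receptor. It was at 558.5, 550.6, 563.4 and 561.8 in NA MPs, the tightest set of any receptor, and at 602, 535.8, 578.6, 547 and 587.6 in WT MPs. All NA samples lay inside the WT range. The log2 fold change of Itga5 was -0.03 ± 0.05 (SE; edgeR adjusted p = 0.695), and 2 SE to either side spanned a change from -7.96% to 4.61%. When counts were corrected for GC content and length of the genes, a choice made after the data were seen, Itga5 was lower by a log2 fold change of -0.13 (edgeR adjusted p = 0.0136).

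Itgb1 (chr8:128685654-128733200, plus strand), the beta subunit common to these receptors, fell. In NA MPs its normalized read counts were 1575, 1517, 1539 and 1547, and in WT MPs they were 1691, 1682, 1634, 1696 and 1641. Every NA sample lay below every WT sample, and the spread within a group was small, with an SD of 1.55% of the mean in NA MPs and 1.74% in WT MPs. Itgb1 fell by a log2 fold change of -0.11 ± 0.03 (SE; edgeR adjusted p = 0.00407). Per kb of the longest coding transcript, the sum of Itga4, Itga5 and Itga6 over Itgb1 was 1.41 ± 0.032 in NA MPs (SD, n = 4) and 1.19 ± 0.0571 in WT MPs (SD, n = 5), without overlap. This sum leaves out other alpha subunits, and Itga4 also pairs with Itgb7, so the ratio does not measure unpaired subunits. Itga4 over Itga5 was 2.12 ± 0.0946 against 1.81 ± 0.167, also without overlap, though NA replicate 2 (2.02) and WT replicate 2 (2.0) were almost level. The size of these ratios, and of those given below, depends on the transcript length used. The erythroid markers given above, of which 13 of 15 tested were lower, moved in the same direction as Itgb1 and Cd44, and their part was not tested.

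Of the leukocyte integrins, Itgal and Itgam rose, the rise of Itgb2 depended on the processing, and Itgax did not pass (log2 fold change 0.49, edgeR adjusted p = 0.0589). Itgal changed most of the 10 receptors. Itgal (chr7:127296260-127335138, plus strand) encodes the alpha subunit of LFA-1, which binds Icam1. Its counts were 1599, 1680, 1703 and 1602 in NA MPs and 1237, 1248, 1271, 1217 and 1220 in WT MPs. The groups were far apart, and the samples within each were close. Itgal rose by 32.9%, a log2 fold change of 0.41 ± 0.03 (SE; edgeR adjusted p = 4.49e-15). Among the 11372 other genes compared, Vpreb1, a surrogate light chain gene of early B cells, had the profile most like that of Itgal (Pearson r = 0.996 over 9 samples, which fall into 2 groups, and 0.926 for the deviations from the group means). Vpreb1 was at 95.92, 183.9, 205.1 and 116.2 in NA MPs, and at 13.04 to 19.49 in WT MPs. NA replicates 2 and 3, with more Itgal, also had more B lineage transcript in sum (315 and 310 CPM against 167 and 228). Selplg (1815 and 1867 against 1682 and 1618) and Mpo (113300 and 111902 against 103665 and 106690) were split in the same way. Kit was not (2840 and 2965 against 3168 and 3018). The sort excluded cells that carry B220, and the part of B lineage cells in the rise of Itgal was not tested.

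Itgam (chr7:128062640-128118491, plus strand) encodes the alpha subunit of Mac1, a receptor for complement and Icam1 on mature myeloid cells. Mac1 was 1 of the lineage antigens that the sort excluded, so the transcript was measured in cells gated against its protein. Itgam was at 423.7, 538.3, 555.5 and 535.9 in NA MPs and 392.3, 410.1, 448.3, 433.2 and 418.7 in WT MPs. NA replicate 1 fell among the WT samples, and the other NA samples lay above all of them. Itgam rose by a log2 fold change of 0.30 ± 0.06 (SE; edgeR adjusted p = 0.000132), and by 0.37 without NA replicate 1. Maturing neutrophil markers summed to 612 to 886 CPM in NA MPs and 459 to 541 in WT MPs, lowest of the NA samples in replicate 1. Monocyte and macrophage markers summed to 1670 to 1900 against 1540 to 1650. Neither list moved as one, with 4 higher and 1 lower of 9 tested neutrophil genes. Of 11 tested monocyte and macrophage genes, 7 were higher and 2 lower. The part of both lists in the rise of Itgam was not tested. Exons of Itgam also overlap the annotated gene Gm49368 on the same strand. The profiles most like that of Itgam were Plekhg2 (r = 0.971), Cep250 (0.961), Tmbim6 (0.960), Evl (0.953) and Prex1 (0.952) over the same 9 samples.

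Itgb2 (chr10:77530252-77565708, plus strand) encodes the beta subunit that pairs with both. It was at 575.5, 656.8, 605.1 and 603.6 in NA MPs and at 569.4, 606.5, 527.3, 532.9 and 562.3 in WT MPs. WT replicate 2 was above 3 of the 4 NA samples, and NA replicate 1 was close to WT replicate 1. The log2 fold change of Itgb2 was 0.12 ± 0.05 (SE; edgeR adjusted p = 0.0372), and the exact permutation p was 0.0635. This call was lost in 12 of 22 other settings, among them DESeq2 (adjusted p = 0.174) and the GC and length correction (log2 fold change 0.04, edgeR adjusted p = 0.521). It was kept in 3 of the 9 fits that left out a sample, with edgeR adjusted p-values of 0.196 without NA replicate 2, 0.0564 without NA replicate 3, 0.0512 without NA replicate 4, and 0.112, 0.101 and 0.0567 without WT replicates 3, 4 and 5. Per kb of transcript, the 4 alpha subunits that pair with Itgb2 (Itgal, Itgam, Itgax and Itgad) summed to 2.15 ± 0.0924 of the Itgb2 level in NA MPs (SD, n = 4) and 1.78 ± 0.129 in WT MPs (SD, n = 5), without overlap. Itgal over Itgam overlapped between the groups, at 2.68 to 3.38 in NA MPs and 2.52 to 2.83 in WT MPs. The level of Itgb2 was 0.508 ± 0.0359 of that of Itgb1 in NA MPs and 0.431 ± 0.0232 in WT MPs.

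**Figure D2:**
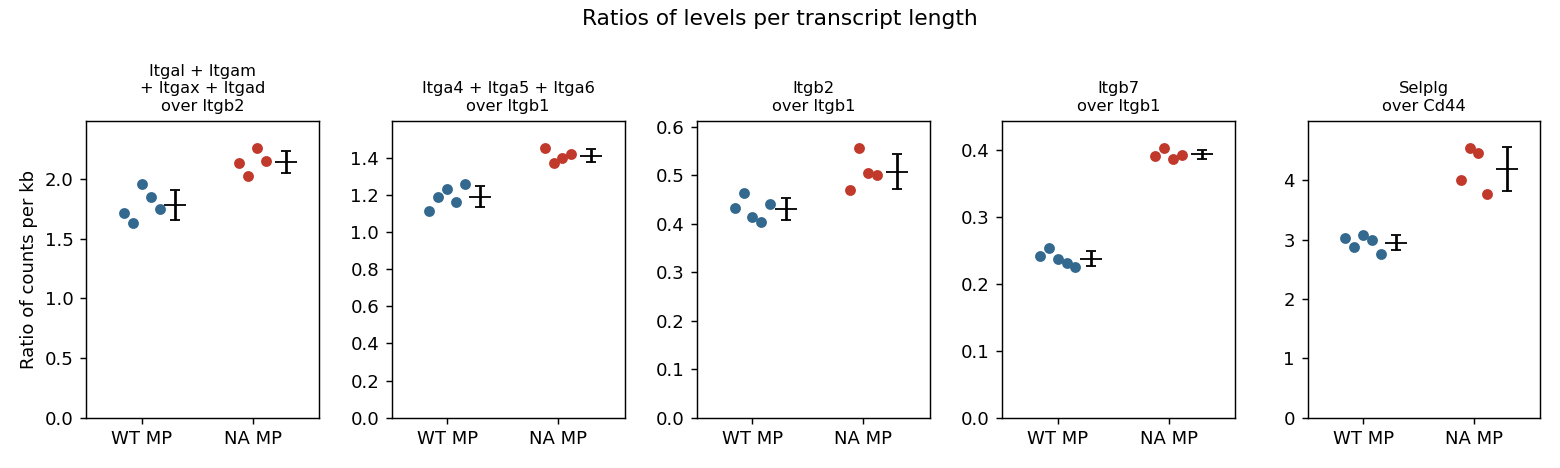
Ratios of normalized count per kb of transcript (y axis, from 0) between receptor subunits or receptors in 5 WT MP samples (blue) and 4 NA MP samples (red), with mean and SD in black. In each of the 5 ratios all NA samples lie above all WT samples, with Itgb7 over Itgb1 at 0.394 ± 0.00667 against 0.238 ± 0.0112 furthest apart for its spread. Itgal over Itgam, which overlapped between the groups, and Itga4 over Itga5, which did not, are not drawn. A ratio of a gene that rose to one that fell, such as Selplg over Cd44, restates those changes. The size of each ratio depends on the transcript length used.

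Selplg and Cd44 moved in opposite directions. Selplg (chr5:113818536-113832644, minus strand) encodes PSGL-1, the main ligand of P-selectin on leukocytes. Its normalized read counts were 1682, 1815, 1867 and 1618 in NA MPs and 1432, 1444, 1465, 1481 and 1319 in WT MPs. Every NA sample was above every WT sample. Selplg rose by a log2 fold change of 0.29 ± 0.04 (SE; edgeR adjusted p = 1.6e-07). The gene with the profile most like it was Ptpn18, a protein tyrosine phosphatase (r = 0.989).

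Cd44 (chr2:102811141-102901665, minus strand) was at 1268, 1209, 1268 and 1298 in NA MPs and at 1432, 1517, 1442, 1500 and 1447 in WT MPs. The highest NA sample stood well below the lowest WT sample. In NA MPs Cd44 fell by 14.1%, a log2 fold change of -0.22 ± 0.03 (SE; edgeR adjusted p = 6.01e-07). Utp20, a ribosomal RNA processing gene, had the most similar profile (r = 0.985). The level of Selplg per kb of the longest coding transcript was 4.2 ± 0.366 times that of Cd44 in NA MPs and 2.95 ± 0.127 times in WT MPs, without overlap. The size of this ratio depends on the length used. Per kb of all merged exons of a gene, Selplg was at 409 ± 27.1 and Cd44 at 186 ± 5.48 in NA MPs. In WT MPs they were at 334 ± 15 and 217 ± 5.61.

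Cxcr4 (chr1:128588199-128592293, minus strand) varied most between NA samples. Its normalized read counts were 737, 982.7, 907.1 and 803.4 in NA MPs and 963.9, 893.4, 855.6, 871.4 and 809.2 in WT MPs. Both the lowest and the highest of the 9 samples were NA MPs, and the SD was 12.7% of the mean in NA MPs and 6.46% in WT MPs. The log2 fold change was -0.03 ± 0.09 (SE; edgeR adjusted p = 0.819), and 2 SE to either side allowed a change from -13.2% to 10.2%. Its sign was positive in 3 of 22 other settings, those without NA replicate 1, NA replicate 4 or WT replicate 1. Within the NA samples the order of Cxcr4, lowest in replicate 1 and highest in replicate 2, was also the order of the summed B lineage markers, which was not tested. Tkt (r = 0.963), Mapkbp1 (0.936), Mapk3 (0.932), Dusp3 (0.922) and Sh3bp5l (0.920) had the profiles most like that of Cxcr4, and none of these 5 passed the edgeR test between the groups.

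**Figure D3:**
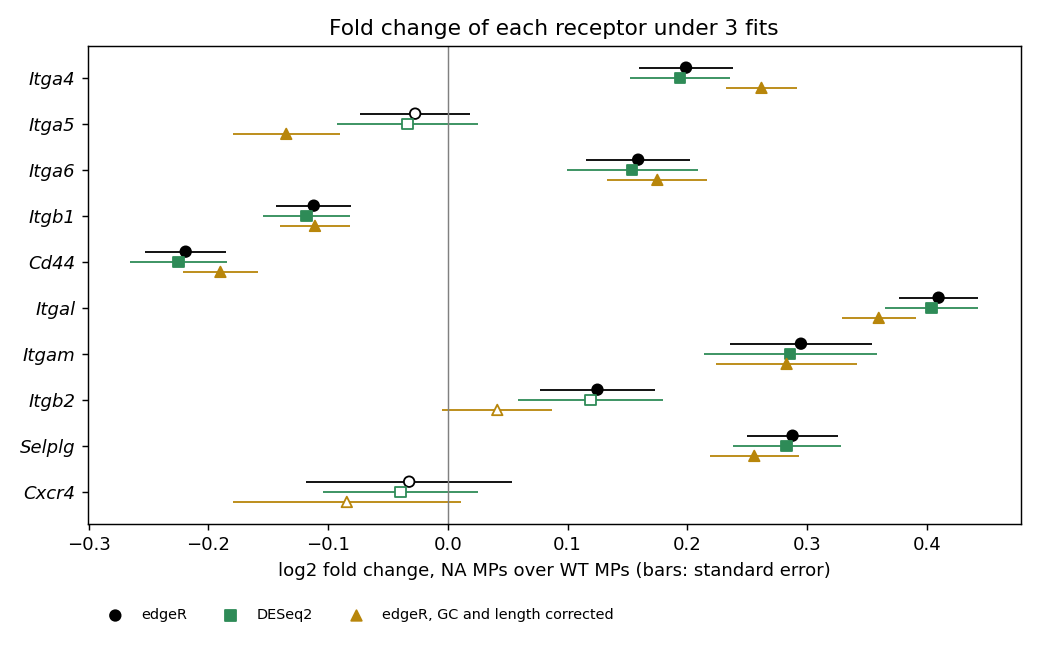
Log2 fold change of NA MPs over WT MPs (x axis) of each receptor, with its SE, by edgeR (circles), DESeq2 (squares) and edgeR after correction for GC content and length (triangles), where filled symbols passed an adjusted p of 0.05 and open ones did not. Itgb2 is filled only by edgeR without correction, and Itga5 only with it.

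Per kb of the longest coding transcript, the levels of the receptors spanned from 89.8 ± 4.58 for Itgam to 770 ± 34.5 for Selplg in WT MPs (SD, n = 5). Below Selplg came Cxcr4 (487 ± 31.5), Itgb1 (437 ± 7.62), Cd44 (261 ± 6.77), Itgal (237 ± 4.24), Itga4 (235 ± 14.1), Itgb2 (188 ± 10.7), Itga6 (155 ± 6.61) and Itga5 (130 ± 6.36). Itgal and Itga4 overlapped in WT MPs, and Cxcr4 (448 to 534) and Itgb1 (428 to 445) were separated by less than their spread. In NA MPs, Itgal (315 ± 10.2) and Itga4 (271 ± 13.5) stood above Cd44 (225 ± 6.61), which overlapped with Itgb2 (205 ± 11.4). The order depends on the transcript length used. Per kb of all merged exons of a gene, Cxcr4 was highest in WT MPs (486 ± 31.4), Itgb1 next (409 ± 7.13) and Selplg after it (334 ± 15), and Itga6 was lowest (73.9 ± 3.16).

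**Figure D4:**
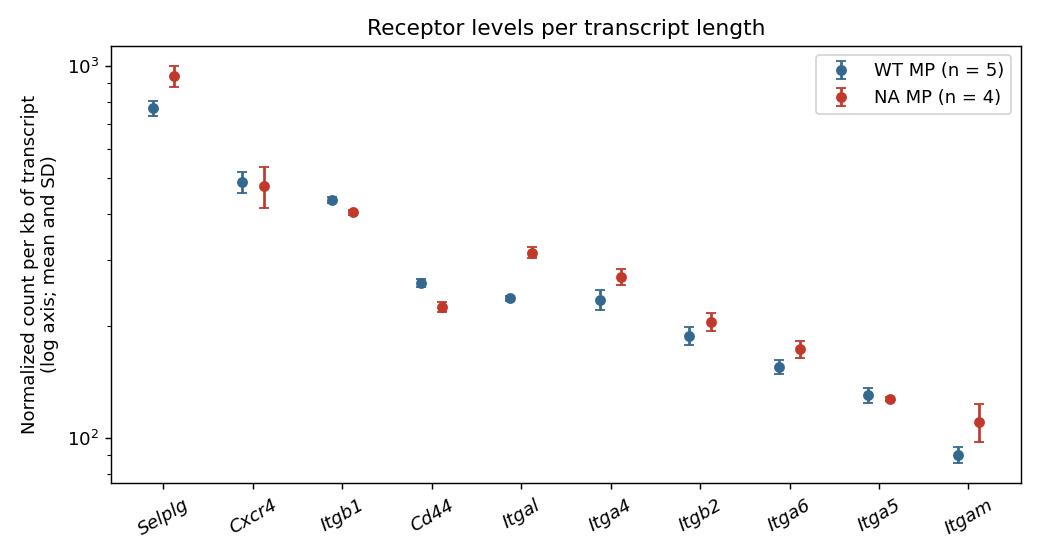
Normalized count per kb of the longest coding transcript (y axis, log scale) of each receptor, ordered by its level in WT MPs (blue, n = 5) beside NA MPs (red, n = 4), as mean and SD. Itgal and Itga4 lie above Cd44 in NA MPs and below it in WT MPs.

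In the lists that follow, values after ± are SDs over 4 NA MP or 5 WT MP samples unless SE is named. The share of all tested genes that were called, beside which each list's count stands, was 34.1%. Of the 19 other integrin subunit genes, 10 were tested, 4 rose, 1 fell and 5 did not pass the test, and the median of their log2 fold changes was 0.30. Itgb7, the beta subunit that pairs with Itga4 in the gut-homing integrin, was at 434.7, 430, 419.2 and 427.2 in NA MPs and 260 to 300.7 in WT MPs (log2 fold change 0.61 ± 0.06 SE, edgeR adjusted p = 3.49e-13). Its level per kb relative to Itgb1 was 0.394 ± 0.00667 in NA MPs and 0.238 ± 0.0112 in WT MPs. Itgb3, a platelet integrin subunit, fell from 231.8 ± 9.8 to 152.2 ± 10.2 (log2 fold change -0.61, edgeR adjusted p = 1.48e-09), whereas its partner Itga2b rose from 987.9 ± 52.1 to 1133 ± 97.4 (0.19, adjusted p = 0.00249), a call lost with the GC and length correction (0.08). The summed megakaryocyte markers, which hold both genes, overlapped between the groups (248 to 291 CPM against 270 to 293). Of the 9 tested genes of that list, Itga2b and Itgb3 among them, 1 rose and 4 fell, so the overlap does not mean that the markers were level. Itgad, another partner of Itgb2, was at 54.64, 28.6, 30.42 and 26.75 in NA MPs and 7.051 to 15.39 in WT MPs (log2 fold change 1.79, edgeR adjusted p = 1.16e-07), but its exons overlap those of 4 other annotated genes. Itga1, a collagen receptor subunit, rose from 128.8 ± 14.3 to 169.2 ± 17.6 (0.40, edgeR adjusted p = 0.000254).

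Of 32 genes that switch integrins on or link them to actin, 27 were tested, 12 rose and 5 fell, against 34.1% called over all tested genes, and the median of their log2 fold changes was 0.09. The 17 calls were 13 with the GC and length correction and 10, with 5 higher and 5 lower, with that correction and a replicate block. Fyb, the adaptor ADAP, rose from 253.2 ± 11.4 to 357.8 ± 30.9 (log2 fold change 0.50, edgeR adjusted p = 3.73e-09). Its binding partner Skap2 (0.41, adjusted p = 7.65e-12) and Parvg, the parvin of blood cells (0.31, adjusted p = 1.38e-13), also rose without overlap. Rap1b, the small GTPase that drives inside-out activation, fell from 1474 ± 78.1 to 1261 ± 53.8 (log2 fold change -0.23, edgeR adjusted p = 2.05e-06). Vcl, which reinforces the link to actin (-0.32, adjusted p = 5.43e-06), and Ptk2, the focal adhesion kinase (-0.98, adjusted p = 0.00128), also fell, Ptk2 from a low level of 25.68 ± 6.15. Tln1, the talin that binds beta subunit tails and the most counted gene of this list, was at 7147 ± 170 in NA MPs and 6728 ± 145 in WT MPs (log2 fold change 0.09, edgeR adjusted p = 0.00467), a call lost with the GC and length correction (0.03).

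All 12 genes that build selectin ligands on Selplg and Cd44 were tested, and 1 passed. Fut7, the fucosyltransferase that completes the sialyl Lewis x structure of these ligands, was at 383.7, 342.2, 360.6 and 326.9 in NA MPs and 250.3 to 296.7 in WT MPs. Fut7 rose by a log2 fold change of 0.39 ± 0.06 (SE; edgeR adjusted p = 9.66e-07). Galnt1, which starts O-glycan chains and was the most counted of the list, was at 1690 ± 48.7 and 1672 ± 54.9 (0.01, adjusted p = 0.780). Over this list the median of the log2 fold changes was -0.09, and 4 of its genes passed after the GC and length correction, 1 higher and 3 lower.

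Of the 27 genes of Cxcr4 signalling and its shut-off, 26 were tested, 12 rose and 4 fell, and the median of their log2 fold changes was 0.08. Receptor kinases and arrestins silence and internalise the receptor. The arrestins moved in opposite directions, whereas of the receptor kinases that passed only Grk5, the least counted of them, fell. Grk3 rose from 776.1 ± 26.2 to 1012 ± 44.7 (log2 fold change 0.38, edgeR adjusted p = 1.43e-11) and Arrb2 from 502.6 ± 17.2 to 610.8 ± 22.7 (0.28, adjusted p = 2.11e-06, and 0.18 with the GC and length correction). Arrb1 fell from 1170 ± 47.8 to 1011 ± 30.4 (-0.21, edgeR adjusted p = 1.04e-05), and Grk5, at 24.2 ± 3.31 and 14.77 ± 7.83, had a log2 fold change of -0.73 (adjusted p = 0.0212), a call lost with DESeq2, without NA replicate 2 (-0.45) and without WT replicate 4. Dpp4, the surface protease that trims Cxcl12, fell from 211.5 ± 19.1 to 174.4 ± 19.1 (-0.28, edgeR adjusted p = 0.00369). Rhoh, a GTPase of blood cells, rose (0.34, adjusted p = 8.32e-05). Gnai2, the G protein alpha subunit that couples to chemokine receptors, was at 4819 ± 204 against 4426 ± 141 (0.12, edgeR adjusted p = 0.000435), a call lost with the GC and length correction (0.02).

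Of 30 other homing and adhesion receptors, 21 were tested, 7 rose and 6 fell, and the median of their log2 fold changes was -0.03. Chemokine receptors split. Ccr1 rose from 16.83 ± 4.94 to 59.56 ± 7.33 (log2 fold change 1.80, edgeR adjusted p = 8.01e-12), whereas Ccr2, which guides monocytes, fell from 627.9 ± 32.6 to 417.8 ± 24 (-0.58, adjusted p = 3.69e-14). S1pr1, the receptor that draws cells towards the blood, rose from 35.94 ± 6.01 to 59.06 ± 9.59 (0.68, edgeR adjusted p = 0.000331). Alcam (-0.60, adjusted p = 5.23e-09) and Hmmr, another hyaluronan receptor (-0.35, adjusted p = 1.57e-07), fell as Cd44 did. Spn, a sialomucin and the most counted of the list, was at 4381 ± 84.2 against 4093 ± 114 (0.10, edgeR adjusted p = 0.00303), a call lost with the GC and length correction (0.03).

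Ligands of the receptors are made mostly by stroma and vessels. Of 20 such genes 9 were tested, 4 rose and 1 fell, against 34.1% called over all tested genes, and 2 were higher and 1 lower with a replicate block and the GC and length correction. The median of their log2 fold changes was 0.12, and Cxcl12, the ligand of Cxcr4, did not reach the tested level. Selp, the P-selectin that binds Selplg, rose from 218.8 ± 12.2 to 339.3 ± 27.5 (log2 fold change 0.63, edgeR adjusted p = 1.4e-11). Vcam1, the ligand of VLA-4, was at 438.3, 338.1, 448.5 and 417.1 in NA MPs and 448.3 to 514 in WT MPs (-0.25, edgeR adjusted p = 0.00189, and -0.16 without NA replicate 2), with an overlap at 1 sample of each group. Icam4 rose from 55.64 ± 3.12 to 75.67 ± 9.87 (0.44, edgeR adjusted p = 0.00359), and Lamc1, a laminin chain, from 72.55 ± 10.6 to 109.1 ± 7.11 (0.58, adjusted p = 2.18e-05). Stroma and endothelial markers summed to 65.0 to 74.1 CPM in NA MPs and 36.6 to 43.4 in WT MPs, with Pdgfra at 0 in every library. Of the 10 genes of that list 2 reached the tested level, 1 of them higher and 1 lower in NA MPs. The part of these markers was not tested.

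**Figure D5:**
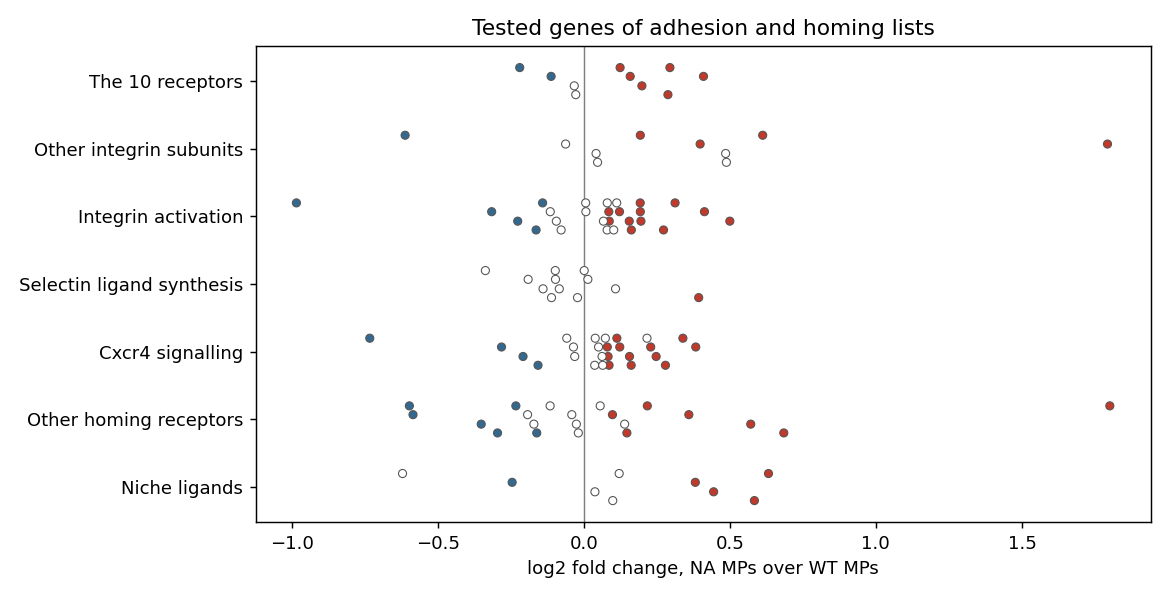
Log2 fold change of NA MPs over WT MPs (x axis) of every tested gene of the 10 receptors and of 6 lists, where red points passed the edgeR test as higher, blue points as lower, and open points did not pass, and vertical offsets only separate points. The receptors lie between -0.22 and 0.41, whereas Itgad and Ccr1 lie near 1.8 in their lists.

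The remaining profiles most like those of single receptors were Elovl6 for Itga4 (r = 0.973), Rad51d for Itga5 (0.930), Asb16 for Itga6 (0.972), Hcn3 for Itgb1 (0.984) and Cideb for Itgb2 (0.956). Each was the highest of 11372 genes over 9 samples that fall into 2 groups, and is given as a description.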

How the data were processed

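MPs were profiled by polyA RNA-Seq (RNeasy micro kit, Illumina TruSeq kit, NextSeq 500). The submitters' processing notes name bcl2fastq, RSEM, DESeq2 and the mm10 build, and the annotation, the RSEM version and the use of strand are not given in the sources used here. The authors deposited 1 table of expected counts per gene. Its values are not unscaled, because in each sample the low values are whole multiples of 1 step (0.8266 to 1.2), and division by the step gave whole numbers (within 0.02) for 97.3% to 97.6% of values above 0. The step times the DESeq2 size factor was 0.9994 to 1.002, so a size factor scaling was undone before the test, which the test design had not foreseen.

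Expected counts were restored and rounded to whole numbers, giving 5557718 to 8106140 per sample, in which 3 counts equal 0.37 to 0.54 CPM. In R 4.3.3, edgeR 4.0.16 (TMM factors, filterByExpr with a minimum count of 10, robust quasi-likelihood test of NA MPs against WT MPs, Benjamini-Hochberg adjustment, threshold 0.05) tested 11953 of the 20104 genes with any count, with a biological coefficient of variation of 3.49%. DESeq2 1.42.0 and limma 3.58.1 (log2 of the TMM-normalized count plus 1) were alternatives, as were RLE size factors, scaling by library size alone, 2 other filters (none, or 10 counts or more in each sample), no robust option, a threshold of 0.01, a replicate block, leaving out each sample, unrounded counts, counts as deposited, and a GC and length correction (a loess curve per sample), of which the last 3, limma and the block with the correction were chosen after seeing the data. The fitting code was tested on simulated data. Log2 fold changes are NA over WT.

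Symbols matched 32916 of 37980 genes. Coordinates, overlaps, GC content and lengths are from GENCODE M21 (GRCm38, the same assembly as mm10), and promoter windows are from RefSeq. Genes named were the 10 receptors, from each list the 3 largest rises and the 3 largest falls among those passing the test and the most counted gene, and for each receptor the gene with the most similar log2 CPM profile (5 for Cxcr4 and Itgam). A gene that this rule names is not reported here. The receptors and lists were chosen with earlier results of these data known. The labels give no batch, and they give the time after transplantation used here, which differs from that in the methods of the study. Pairs of samples within a group differed by more than sampling noise (chi-square per degree of freedom 1.63 to 2.83 in NA MPs and 1.2 to 1.71 in WT MPs).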

Additional observations from a re-analysis of the deposited data

Results flagged for a closer look

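In 3 of 84 groups of samples of the named genes, 1 sample lay far from the others by Dixon's test, where chance alone flags about 1 in 20 groups, or 4.2 here. Itgam was at 423.7 normalized read counts in NA MP replicate 1, below 535.9 to 555.5 in the other NA samples. Itgad was at 54.64 in the same sample, above 26.75 to 30.42 in the other NA samples. Galnt1 was at 1577 in WT MP replicate 1, below 1676 to 1711 in the other WT samples.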

How the results depend on the processing

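Under 22 alternative settings Itga4, Itga6, Itgal, Itgam, Itgb1, Cd44 and Selplg kept their direction and their call, and the number of called receptors was 7 or 8. Itgb2 lost its call in 12 settings, Itga5 gained one in 2, and Cxcr4 passed in 0 (adjusted p 0.195 to 0.995). Genes called over the whole table numbered 4078, and from 2886 at a threshold of 0.01 and 3025 with DESeq2 to 4331 with the GC and length correction, which also moved the share of calls that were higher from 52.3% to 38.2% (1656 higher and 2675 lower, against 2134 and 1944) and the median log2 fold change of all tested genes to -0.04. Of the selectin ligand genes, 1 was called, and 3 with library size only, 4 with the GC and length correction and 1 to 3 when 1 sample was left out, with 3 without NA replicate 3 and 2 without NA replicate 1 or WT replicate 1. With the replicate number as a block, 3741 genes and 8 receptors were called. The numbers share only a label, as deviations of samples with the same number correlated by -0.0193 to 0.0526 and no sample correlated best with its own number. The block with the GC and length correction called 10 integrin activation genes against 17, 5 selectin ligand genes against 1 and 3 ligands of the receptors against 5. Of 702 values of 32 named list genes, 689 kept their side of the threshold, 13 lost the call and no called gene changed sign. Galnt1, which passed in no setting, turned from 0.01 to between -0.01 and 0.00 in 3 of them (library size only, without NA replicate 1 and without WT replicate 1). The causes were not tested. Depth limits statements on genes under 0.37 to 0.54 CPM, which holds for none of the receptors.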
